A study of Mus musculus with 12 samples.

Results

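The genes described here are 9 genes of the hemidesmosome and of the epidermal basement membrane, taken by their symbols from the 32285 genes in the count files: the integrin chains Itga6, Itgb4, Itga3 and Itgb1, the transmembrane collagen Col17a1, the laminin chains Lama3 and Lamb3, the plakin Dst and the tetraspanin Cd151. All 9 were found and all 9 passed the filter on low counts in each of the 5 keratinocyte classes of both sexes. The data are single-cell RNA counts from the glabrous hind paw epidermis of wild-type C57BL/6J mice, male and female, fed a regular diet (RD, 11% fat) or a high-fat diet (HFD, 42% fat) for 10 weeks. Each of the 4 groups of sex and diet had 3 libraries, and the study describes 3 mice per group. The mice were 6 to 8 weeks old when the diets began and 16 to 18 weeks old at harvest, and no group carried a transgene or received a drug. The epidermis was peeled off after Dispase and dissociated with TrypLE, so the cells had been cut loose from the basement membrane that these genes serve.

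Basal keratinocytes sit on the basement membrane and are held to it by hemidesmosomes, plaques that join the keratin filaments inside the cell to laminin-332 outside it. In the plaque the integrin α6β4 (Itga6 and Itgb4) and collagen XVII (Col17a1, also called BP180) span the membrane, while the epithelial form of dystonin (Dst, BP230) and plectin bind keratin on the inner side. Laminin-332, which holds the Lama3 and Lamb3 chains, is also bound by the integrin α3β1 (Itga3 and Itgb1), and CD151 is a tetraspanin that associates with both laminin-binding integrins. Loss of these proteins is known to cause skin blistering, and cells that leave the basal layer to differentiate lose contact with laminin.

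The counts covered 140392 barcodes, 7370 to 16254 per library and 134449247 to 194673581 unique molecular identifiers (UMIs, 1 per captured transcript) per library. The study's filters on genes and mitochondrial UMIs left 126375 cells, 62147 male and 64228 female, with a median of 6577 to 15047.5 UMIs per cell in a library. For males the study gives more cells than the limits it states left here, and the reason was not tested. Any pair of libraries shared 15 to 70 cell barcodes. Male RD 2 stood apart, with the most barcodes and the lowest median of UMIs. Female HFD 2 also stood apart, with a median of 2.66% mitochondrial UMIs per barcode against 1.98% to 2.13% in the other female libraries, and with 31.5% of its cells in the basal class and 16.8% in the suprabasal class against 23.3% to 26.0% and 21.6% to 24.5%. The headers of the count files name Cell Ranger 6.1.0 in males but 7.2.0 in females, so sex and counting software cannot be told apart and no level was compared between the sexes. Cells were clustered anew without the 9 genes, and each class was named from other markers, so the classes need not be those of the study, which used Itga6 and Itgb1 among its markers of basal cells. The 5 classes used were basal (14552 male and 16494 female cells), cycling (8269 and 10699), Krt79 (2964 and 3746), volar Krt9 (11167 and 13349) and suprabasal (18174 and 14141). With 3 libraries against 3, an exact two-sided permutation test of a share of cells cannot go below p = 0.1, so no difference in shares between diets could pass the threshold. The diets were fully apart in female suprabasal cells, with 23.5%, 23.2% and 24.5% of cells on RD and 21.6%, 16.8% and 21.7% on HFD (exact p = 0.1), and the other 9 shares of the 5 classes had p of 0.2 to 0.7. Fewer cells of a kind within a class and less RNA per cell cannot be told apart in such sums.

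Levels are given in CPM, the UMIs of a gene in all cells of a class in a library per 1000000 UMIs of that class and library. The assay tags the 3′ end of a transcript, and levels were compared between classes for 1 gene at a time, not between genes.

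Positions are those of the GRCm38 annotation. Itga6 lies at chr2:71745616-71858416 on the plus strand and Itgb4 at chr11:115974709-116008412 on the plus strand. Itga3 lies at chr11:95044474-95076801 on the minus strand and Itgb1 at chr8:128685654-128733200 on the plus strand. Col17a1 lies at chr19:47646344-47692094 on the minus strand and Lamb3 at chr1:193207699-193343878 on the plus strand. Dst, at chr1:33908225-34308661 on the plus strand, is the longest of them, with 359282 of its 400437 bases in introns. Cd151, at chr7:141467392-141471473 on the plus strand, is the shortest, with 1341 of its 4082 bases in introns. The headers do not say if intronic reads were included in the counts.

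Since 8 of the 9 genes fell in 1 order across classes while Cd151 kept its own, a promoter each of Col17a1, Cd151 and Itga3 is shown for comparison, for Cd151 and Itga3 the more upstream of the 2 in the table. They run from 250 bases before to 50 bases after the start site, 5′ to 3′ on the gene's strand, and come from RefSeq on GRCm38.p6. Capitals mark each match to the AP-1 motif TGANTCA, the GC box GGGCGG or the TATA box TATAAA on either strand.
Col17a1, chr19:47691993-47692292, minus strand: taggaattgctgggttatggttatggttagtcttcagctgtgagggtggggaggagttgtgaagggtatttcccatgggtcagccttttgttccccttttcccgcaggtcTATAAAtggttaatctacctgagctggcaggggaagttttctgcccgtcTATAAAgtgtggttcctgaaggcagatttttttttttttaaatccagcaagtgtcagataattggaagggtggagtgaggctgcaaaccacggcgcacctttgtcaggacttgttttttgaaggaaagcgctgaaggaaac
Cd151, chr7:141467112-141467411, plus strand: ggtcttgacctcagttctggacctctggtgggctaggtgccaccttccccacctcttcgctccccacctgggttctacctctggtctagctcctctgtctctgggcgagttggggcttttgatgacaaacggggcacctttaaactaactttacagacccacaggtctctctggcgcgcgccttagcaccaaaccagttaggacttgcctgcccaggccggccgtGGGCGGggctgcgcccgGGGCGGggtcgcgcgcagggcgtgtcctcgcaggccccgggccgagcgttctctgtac
Itga3, chr11:95076665-95076964, minus strand: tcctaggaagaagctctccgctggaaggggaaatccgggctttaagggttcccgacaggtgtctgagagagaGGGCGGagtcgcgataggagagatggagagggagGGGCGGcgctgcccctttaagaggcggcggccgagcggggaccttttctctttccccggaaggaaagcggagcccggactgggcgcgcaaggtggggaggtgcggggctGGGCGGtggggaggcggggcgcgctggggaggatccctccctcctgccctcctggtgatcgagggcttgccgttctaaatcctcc
The Col17a1 window held 2 TATA boxes, which began 140 and 91 bases before the start site. The Cd151 window held 2 GC boxes, 25 and 8 bases before it, and had a GC content of 64.3% against 46.3% for Col17a1 and a median of 52.7% over 32851 promoters. The Itga3 window held 3 GC boxes, 178, 144 and 35 bases before the start site, with a GC content of 66.7%. The downstream window of Itga3, at chr11:95069149-95069448, held 1 GC box and an AP-1 match and had a GC content of 52.3%, and that of Cd151, at chr7:141468539-141468838, held neither motif, with 56.7%. The table held 10 promoters for 6 of the 9 genes. The AP-1 motif stood in 1 of these 10 against 7.81% of all promoters, the GC box in 5 against 35.7%, the TATA box in 1 against 13.6%, and the p53-family motif (not capitalised, with matches that can overlap the others) in 10 against 70.2%. A match describes letters and not a bound site.

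Over the 5 classes, all 9 genes were highest in basal or cycling cells and lowest in suprabasal cells. For 8 of the 9 genes the order of the mean levels was basal, cycling, Krt79, volar Krt9 and suprabasal in both sexes, and the exception was Cd151. Basal over suprabasal ratios of the 9 genes, averaged over the 6 libraries of a sex on the log2 scale, ran from 10.1-fold (Lama3) to 22.2-fold (Lamb3) in males and from 8.64-fold (Lama3) to 38.8-fold (Itga3) in females. The basal level was above the suprabasal level in 6 of 6 libraries of each sex for every member. Their median log2 ratio was 4.04 in males and 4.57 in females, beside 0.40 and 0.47 over all genes, of which 67.9% and 73.3% were also higher in basal cells. The size of the ratio depended on how the classes were drawn: the members' median was 5.05 in males and 5.12 in females with doublets removed, and in females 2.78 at a clustering resolution of 0.6 and 2.97 with the 9 genes and the listed genes kept in clustering. At resolution 0.6 and with the genes kept in clustering, the female suprabasal class also took in a cluster with Krt9 among its leading genes. That cluster held 12837 and 17930 cells, and no volar Krt9 class arose, so the lower ratios are of a wider class. These ratios describe classes that come from clusters of the same cells and were not tested.

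**Figure D1:**
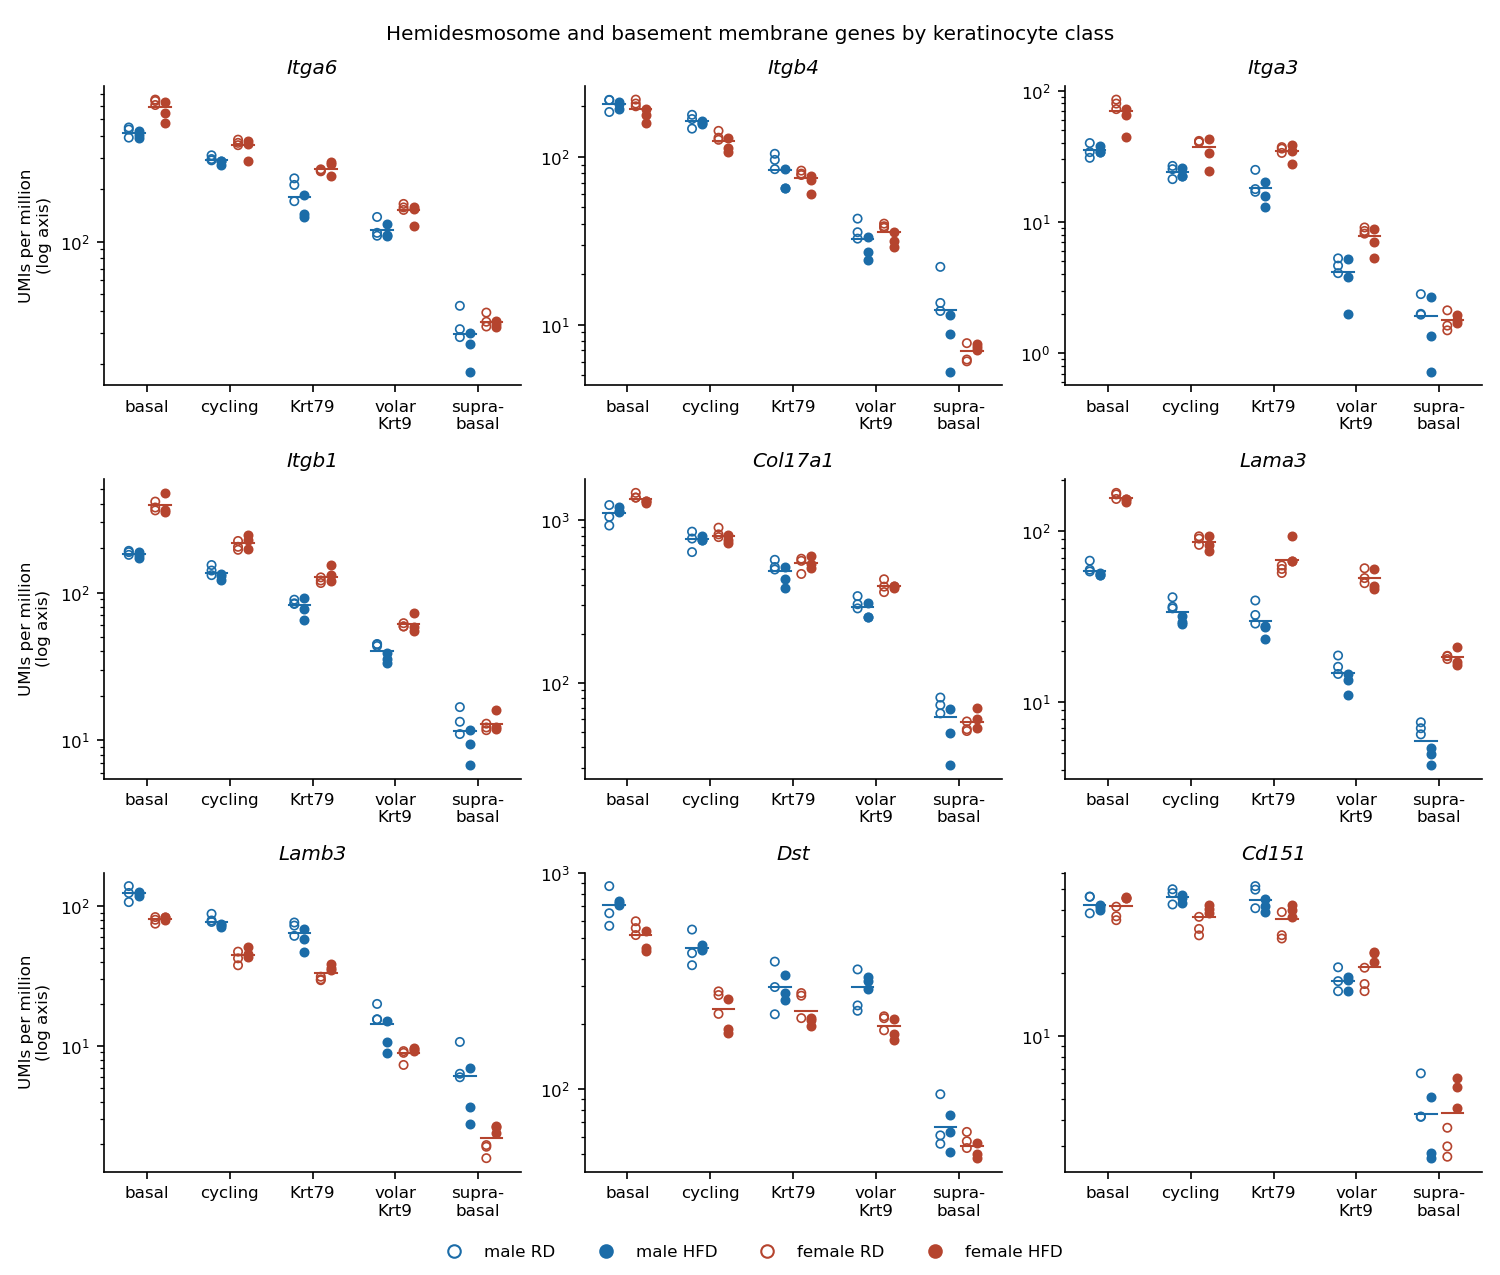
Levels of the 9 genes by class (CPM, log axis), with a panel per gene and males and females side by side in it. Each point is 1 library, and a bar marks the mean of the 6 libraries of a sex. From basal to suprabasal cells the means of 8 of the 9 step down class by class, though some neighbouring classes of Itga3, Lama3, Lamb3 and Dst overlap in range. The Cd151 points of the basal, cycling and Krt79 classes overlap in range.

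The integrin α6β4 is the receptor of the hemidesmosome. Itga6 stood at 393, 449 and 437 CPM in the basal cells of the 3 male RD libraries and at 393, 409 and 430 in those of the 3 male HFD libraries. In females it stood at 648, 637 and 604 on RD and at 624, 545 and 474 on HFD. The libraries of a sex lay close together and the 2 diets overlapped in both sexes. The mean over the 6 libraries fell from 419 ± 23.7 (SD, n = 6) in male basal cells to 292 ± 12.3 in cycling, 179 ± 36.3 in Krt79, 117 ± 12.6 in volar Krt9 and 29.4 ± 8.11 in suprabasal cells, and in females from 589 ± 66.9 to 355 ± 34.0, 261 ± 18.1, 151 ± 14.2 and 34.7 ± 2.45. No neighbours in this order overlapped in range in either sex. Itgb4, the β chain that carries the long cytoplasmic tail to the plaque, had basal levels of 206 ± 13.7 in males and 193 ± 21.6 in females and suprabasal levels of 12.2 ± 5.66 and 6.997 ± 0.733. Between basal and volar Krt9 cells Itgb4 differed more than its partner, 6.42-fold in males and 5.45-fold in females against 3.60-fold and 3.89-fold for Itga6.

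The integrin α3β1 binds the same laminin outside the plaque. Itgb1, a β chain shared with many other α chains, stood at 183 ± 7.55 in male basal cells and 390 ± 46.0 in female ones and at 11.5 ± 3.40 and 12.8 ± 1.58 in suprabasal cells. Itga3 was at 35.1 ± 3.24 and 70.0 ± 14.3 in basal cells and at 1.92 ± 0.793 and 1.78 ± 0.229 in suprabasal cells, where its counts were the lowest of the 9 (35 to 155 UMIs per library in males and 56 to 88 in females). Itga3 fell 8.78-fold and 8.90-fold from basal to volar Krt9 cells, and Itgb1 4.59-fold and 6.36-fold. The cycling and Krt79 ranges of Itga3 overlapped in both sexes, and its volar and suprabasal ranges in males.

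Collagen XVII and dystonin join the plaque to laminin and to keratin. Col17a1 had basal levels of 1046, 925 and 1236 in male RD libraries and 1134, 1122 and 1209 in male HFD libraries, and of 1469, 1374 and 1374 in female RD libraries and 1316, 1265 and 1317 in female HFD libraries. The female RD libraries all lay above the female HFD libraries, and the male diets overlapped. Its mean fell from 1112 ± 114 to 61.4 ± 18.1 between basal and suprabasal cells in males and from 1353 ± 70.3 to 57.1 ± 7.31 in females. Dst fell less from basal to volar Krt9 cells than the other members apart from Cd151, 2.42-fold in males and 2.62-fold in females, and its Krt79 and volar Krt9 ranges overlapped in both sexes. Its means in males were 709 ± 99.5 in basal, 448 ± 56.7 in cycling, 296 ± 59.1 in Krt79, 294 ± 49.9 in volar Krt9 and 66.7 ± 15.9 in suprabasal cells. Dst has 20 annotated transcripts, of which BP230 is the epithelial product, and the counts per gene do not separate them.

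The laminin-332 chains are secreted by basal cells into the basement membrane. Lama3 was at 58.9 ± 4.45 in male and 158 ± 7.32 in female basal cells and kept the highest suprabasal level relative to basal of the 9 genes, 10.1% in males and 11.6% in females. Lamb3 was at 123 ± 10.6 and 80.9 ± 3.41 in basal cells and had dropped to 4.95% and 2.70% of that in suprabasal cells. From basal to volar Krt9 cells Lamb3 fell 8.89-fold and 9.03-fold, and Lama3 4.04-fold and 2.99-fold. The chains of the same trimer thus differed in how far they fell, and the cycling and Krt79 ranges of both overlapped in both sexes. The volar and suprabasal ranges of Lamb3 overlapped in males, and the Krt79 and volar ranges of Lama3 in females.

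Cd151 was the member with another order. In males its mean was 46.0 ± 2.97 in cycling, 44.7 ± 5.19 in Krt79 and 42.4 ± 3.19 in basal cells, and the cycling level was above the basal level in each of the 6 male libraries. In females the means were 41.8 ± 4.45 in basal, 36.9 ± 4.69 in cycling and 36.2 ± 5.28 in Krt79 cells, and the basal level was above the cycling level in 6 of 6 libraries. The ranges of these 3 classes overlapped in both sexes. Volar Krt9 cells came next at 18.3 ± 1.85 and 21.3 ± 3.63 and suprabasal cells last at 4.24 ± 1.51 and 4.32 ± 1.49, without overlap.

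The low suprabasal values were set beside those of genes that mark basal cells. Krt5, Krt14 and Krt15, keratins of basal cells, stood in suprabasal cells at 4.96%, 5.64% and 4.61% of their basal level in males and at 2.41%, 2.72% and 2.39% in females. The suprabasal levels of 6 members were 4.95% to 6.99% of basal in males and 2.65% to 5.94% in females, while Dst, Cd151 and Lama3 had 9.39%, 9.94% and 10.1% in males and 10.7%, 10.2% and 11.6% in females. Langerhans cells, which should lack keratins, held Krt5 at 11.7% and Krt14 at 11.4% of the basal level in males and at 9.59% and 10.4% in females. The Krt5 share ran from 2.99% to 17.8% over the male libraries and from 6.79% to 11.4% over the female ones. Itga6, Itgb4, Itga3, Col17a1, Lama3 and Lamb3 were at 11.4% to 14.7% of basal in male and 8.40% to 10.8% in female Langerhans cells, close to these keratins, and no expression of these 6 genes in Langerhans cells is read from them. Itgb1 was at 57.2% and 41.7%, Cd151 at 40.7% and 39.95% and Dst at 24.1% and 50.2% of basal, above the keratins. The median UMI count of a suprabasal cell was 9986 to 21404 in male and 12690 to 18124 in female libraries, against 2827 to 5608 and 5760 to 7776 for a Langerhans cell. Doublets, droplets with more than 1 cell, were kept in these values. Without the cells of the highest doublet scores, a set of values added after seeing the data, Langerhans cells held Krt5 at 1.67% of basal in males and 0.982% in females, and the 6 genes at 0.842% to 2.02% and 1.01% to 2.74%, while Itgb1, Cd151 and Dst stayed at 18.5% to 69.5%. The suprabasal share fell as well, for Krt5 to 1.48% and 1.19%, for Col17a1 from 5.64% to 2.11% in males and from 4.24% to 2.92% in females, and for Lamb3 to 1.48% and 1.53%. Lama3 and Dst kept the most of the male members, 6.98% and 6.36%, and these 2 and Cd151 the most of the female members, 10.5%, 9.48% and 8.96%. With the doublets removed, the mean suprabasal shares of Lama3 and Dst in males, and of all members but Itga3 and Lamb3 in females, lay above the highest Langerhans share of Krt5 in a library (5.11% and 1.97%). How much of the rest was free RNA was not tested.

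Levels of the members also differed within classes. At a clustering resolution of 0.6 the female basal cells fell into a group led by Mmp3, Has2 and Itga2 (9054 cells) and another led by Dlk2 and Krt14 (7140 cells). In the Mmp3-led group 8 members were higher in 6 of 6 libraries, from 1.13-fold (Itgb4) to 1.81-fold (Itgb1, 460 ± 45.7 against 254 ± 39.97), beside 34.0% of all genes. Cd151 ran the other way and was lower there in 6 of 6 libraries, 37.9 ± 4.06 against 49.5 ± 6.88, beside 19.7% of all genes. Male Krt79 cells at that resolution fell into a group led by Lgr5 and Lhx2 (2249 cells) and one led by Defb6 and Krt79 (747 cells). All 9 members were higher in the Lgr5-led group in 6 of 6 libraries, from 3.13-fold (Cd151, 57.9 ± 7.04 against 18.5 ± 5.52) to 11.0-fold (Lamb3, 93.0 ± 11.2 against 8.41 ± 8.00), with Col17a1 at 698 ± 65.3 against 71.6 ± 41.2. Of all genes 43.5% were higher there in 6 of 6 libraries. In females the corresponding groups held 858 and 2588 cells, and the Lgr5-led one met no class name at that resolution. The members differed in the same direction in 6 of 6 libraries, by 1.48-fold (Cd151) to 4.83-fold (Itga3). Of all genes 32.1% were higher in the female Lgr5-led group in 6 of 6 libraries. These groups come from clusters of the same cells, so the values are a description.

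Over the 30 sums of 5 classes and 6 libraries of a sex, the median Pearson r of a member's log2 level with the other 8 was 0.922 to 0.976 in males and 0.933 to 0.981 in females. The closest pairs were Itga6 with Col17a1 in males (0.993) and Itga6 with Itgb4, the chains of α6β4, in females (0.995). The loosest were Dst with Itga3 in males (0.871) and Dst with Cd151 in females (0.889). The points share libraries and classes and are not independent. Among 10279 genes tested in all 5 classes of both sexes, the 10 whose levels were most like the mean of the 9 members, by the lower of the male and female r, were Spred2 (0.993), Cdh13 (0.991), Krt5 (0.991), Parva (0.991), Tln1 (0.989), Tmem132a (0.988), Krt14 (0.988), Tgfbi (0.987), Col4a6 (0.987) and Cdh3 (0.986). Krt5 and Krt14 are basal markers that named the class. Parva and Tln1 are adaptors that link integrins to actin, Col4a6 is a basement membrane collagen chain and Cdh3 is P-cadherin, a cell adhesion protein of basal cells.

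The diets were then compared within each sex, on UMIs summed per library and class, with the quasi-likelihood test of edgeR and Benjamini-Hochberg adjustment over all genes of the class. The smallest sum behind a member was 25 UMIs (Itga3 in male volar Krt9 cells), and the largest was 41294 (Col17a1 in female basal cells). The p-values measure the spread between these libraries.

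In males, no member passed the threshold of 0.05 in any of the 5 classes, in 45 tests by edgeR and in the same 45 by DESeq2. By edgeR 11 of the 45 (24.4%) had an unadjusted p under 0.05, beside 7.78% of the tests of all genes. The 9 genes vary together, so their tests are not independent of each other. No other gene passed either (0.0% in each class), with 660 to 1619 genes per class at an unadjusted p under 0.05, while DESeq2 called 253 over the 5 classes. The members' median log2 fold change, HFD over RD, was 0.03 in basal, -0.03 in cycling, -0.21 in Krt79, -0.25 in volar Krt9 and -0.46 in suprabasal cells, beside medians of -0.01 to 0.00 over all genes. None of the 9 was above 0 in Krt79 or in suprabasal cells, and 5 were above 0 in basal cells. Without male RD 2, the library that stood apart, Dst in volar Krt9 cells passed, with a log2 fold change of 0.44 (adjusted p = 0.0439, edgeR) against 0.23 with it. Over all genes 207 of 60211 tests passed without that library.

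Lama3 was the member whose male libraries separated by diet in every class. It stood at 58.2, 59.6 and 67.3 in basal cells on RD and at 57.2, 55.4 and 55.4 on HFD. In suprabasal cells the values were 6.47, 7.61 and 7.03 on RD and 4.28, 4.94 and 5.38 on HFD. Each HFD library was thus below each RD library, by a small step in basal cells and a larger one in suprabasal cells. The log2 fold changes were -0.09, -0.30, -0.30, -0.29 and -0.46 from basal to suprabasal cells, and the smallest adjusted p was 0.22 (edgeR, suprabasal). The classes come from the same libraries, so these separations are not independent of each other. No share of all genes apart in every class was counted for comparison. Counted over members, the diets did not overlap and HFD was lower for 1, 3, 1, 3 and 2 of 9 members in basal, cycling, Krt79, volar Krt9 and suprabasal cells, beside 10.2%, 7.48%, 7.78%, 9.74% and 16.2% of all genes. No member lay apart with HFD higher, beside 3.0%, 4.43%, 3.74%, 2.46% and 4.35% of all genes.

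**Figure D2:**
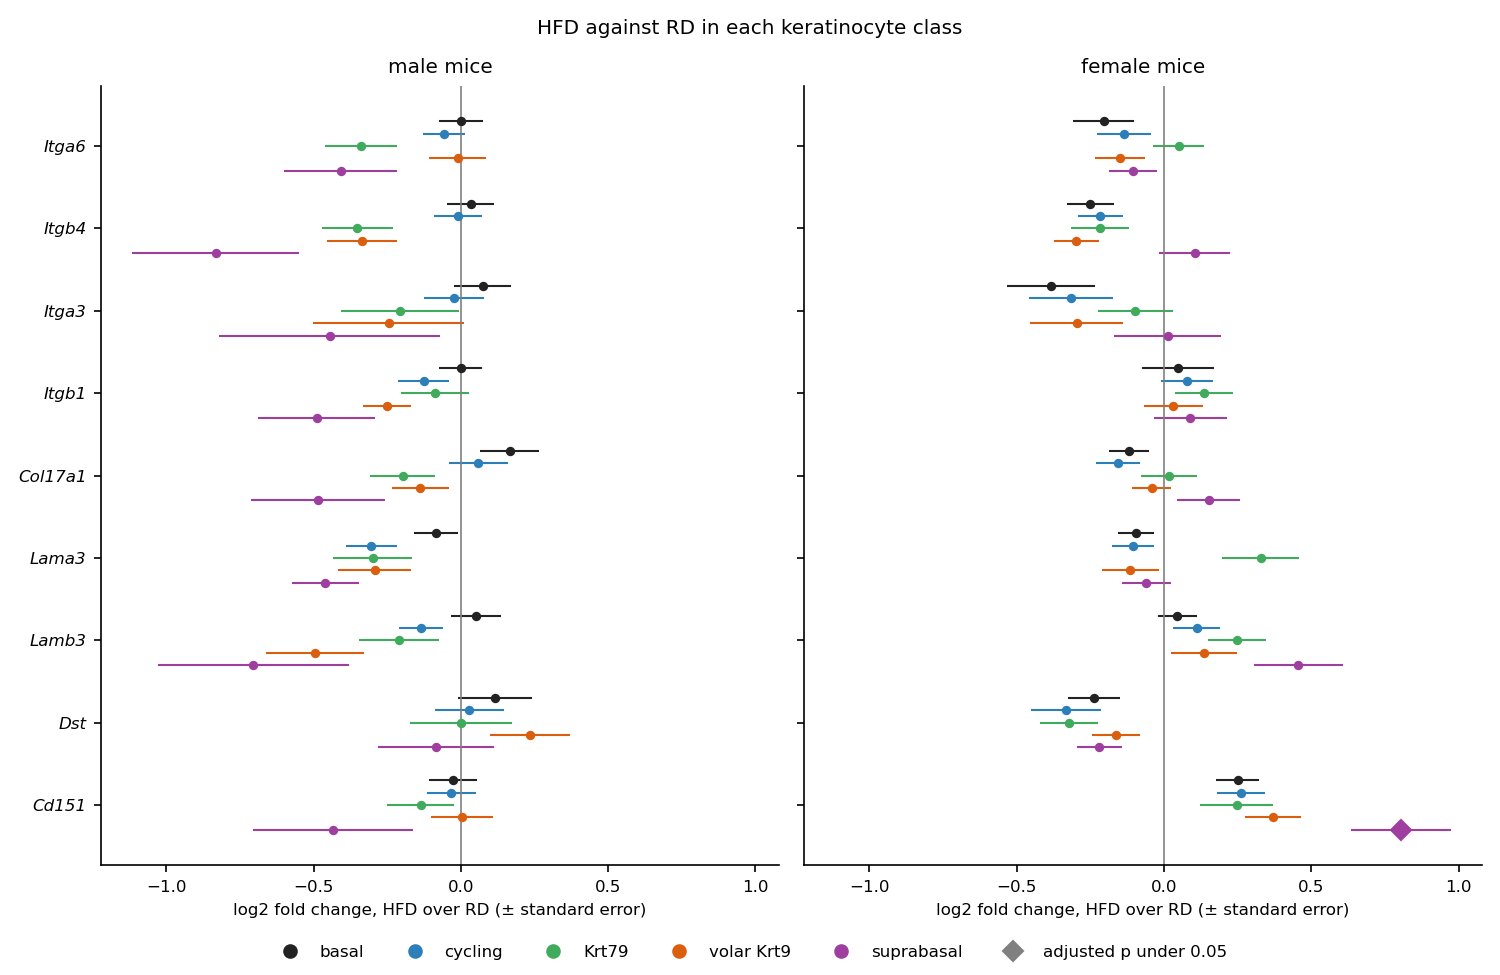
Log2 fold change, HFD over RD, of each member in each class with its standard error (edgeR), males and females in separate panels. Cd151 in female suprabasal cells, at 0.81, is the point marked as past the threshold, and the male suprabasal points all lie below 0.

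The male suprabasal class joined 3 clusters, of which the one led by Tubb3 and Clu (1474 cells) had member levels above those of the class as a whole, with Col17a1 at 298 to 410 and Itga6 at 118 to 138 over the 6 libraries. Its levels were above those of volar Krt9 cells without overlap for Itgb4 (74.7 ± 8.15 against 32.5 ± 6.55), Itga3 (11.2 ± 1.39 against 4.18 ± 1.22), Itgb1 (53.6 ± 3.12 against 40.2 ± 4.92) and Lamb3 (39.0 ± 5.21 against 14.3 ± 3.94), and the ranges of the other 5 members overlapped. Of its cells 84.9% were among those with the highest doublet scores, against 4.08% and 5.35% in the other clusters of the class, and its median of 24863 UMIs per cell was above the 13792 and 19303 of those clusters. This cluster held 14.3%, 20.5% and 11.7% of the UMIs of the class in RD libraries and 4.62%, 8.68% and 11.7% in HFD libraries. In the same order these libraries had 14982, 16254 and 9614 barcodes on RD and 7370, 10451 and 11310 on HFD. The part of the number of barcodes in these shares was not tested. The members' summed level in the class was 211, 285 and 191 on RD and 123, 169 and 218 on HFD, and without the cluster 99.6, 118 and 106 on RD and 79.0, 96.9 and 125 on HFD. The sum of 6 basal markers was 1550, 2374 and 1428 on RD and 687, 1015 and 1437 on HFD, with 5 of the 6 lower on HFD. Male HFD 3 was thus the HFD library with the most of this cluster, of the basal markers and of the members. Without the cluster, an alternative chosen after seeing the data, the log2 fold changes were -0.09 for Itga6, -0.57 for Itgb4, 0.03 for Itga3, -0.20 for Itgb1, -0.28 for Col17a1, -0.32 for Lama3, -0.48 for Lamb3, 0.15 for Dst and 0.08 for Cd151. The full class had -0.41, -0.83, -0.45, -0.49, -0.48, -0.46, -0.70, -0.09 and -0.44 in the same order. With doublets removed from every cluster they were -0.16, -1.06, -0.21, -0.23, -0.35, -0.33, -0.84, 0.13 and -0.06, with adjusted p of 0.36 to 0.96 (edgeR). The changes of Itgb4, Lama3 and Lamb3 were thus of -0.32 or further below 0 under both settings, and those of Dst were above 0. The cluster was chosen for removal after its member levels and its shares by diet were seen, and its part in the values of the class was not tested. Basal markers were also lower on HFD in male Krt79 cells, 6 of 6 with a summed log2 difference of -0.24. There the Lgr5-led group held 68.3%, 70.5% and 68.4% of the UMIs of the pair of groups on RD and 56.9%, 61.9% and 67.6% on HFD. The part of these shifts in the Krt79 values was not tested.

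**Figure D3:**
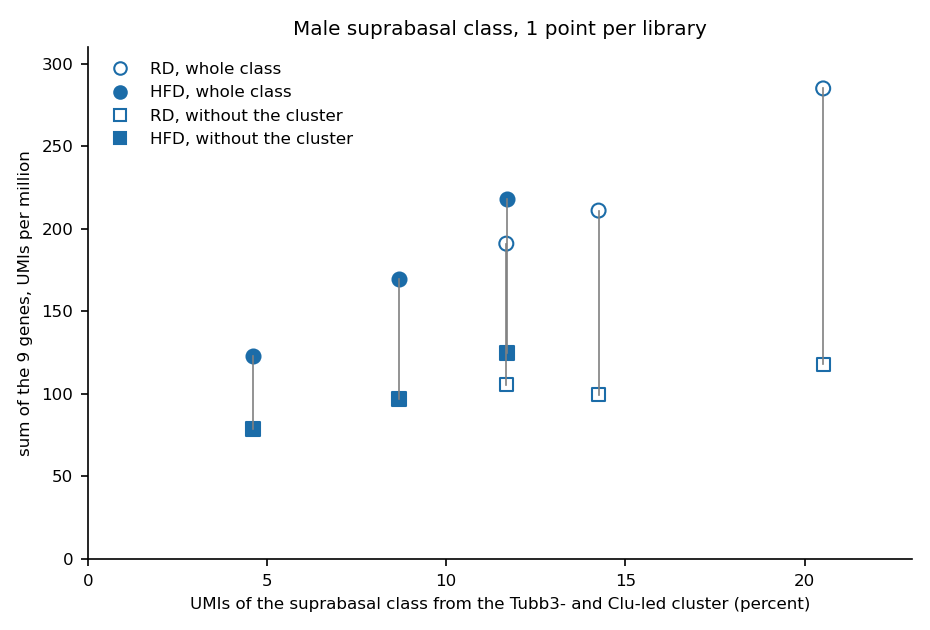
Male suprabasal class by library: share of its UMIs in the cluster led by Tubb3 and Clu (percent), and summed level of the 9 members (CPM) with and without that cluster. The RD libraries hold 11.7% to 20.5% and the HFD libraries 4.62% to 11.7%, and the summed levels of the diets overlap more once the cluster is left out.

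In females 1 of 45 tests of the members passed, Cd151 in suprabasal cells, beside 1.86% of the tests of all genes (edgeR). That count lay near the background share. An unadjusted p under 0.05 was found for 16 of the 45 (35.6%), beside 18.4% of the tests of all genes. The levels of Cd151 in suprabasal cells were 2.99, 3.67 and 2.67 on RD and 5.72, 4.54 and 6.36 on HFD, from 116 to 280 UMIs per library. Each HFD library was above each RD library, and the log2 fold change was 0.81 with a standard error of 0.17 (adjusted p = 0.033, edgeR). In that class 4.43% of all genes tested were called. In the other classes the log2 fold changes of Cd151 were 0.25 in basal, 0.26 in cycling, 0.25 in Krt79 and 0.37 in volar Krt9 cells, with adjusted p of 0.15, 0.12, 0.38 and 0.080 (edgeR), where 0.99%, 1.84%, 0.221% and 1.68% of all genes were called. In volar Krt9 cells Cd151 passed by DESeq2 (adjusted p = 0.043), which called 3.39% of the tests of all genes in females, and by edgeR with no filter on low counts (0.012). The diets did not overlap for Cd151 in basal, cycling, volar Krt9 and suprabasal cells and overlapped in Krt79 cells. In volar Krt9 cells, for example, the values were 21.2, 17.7 and 16.4 on RD and 24.9, 25.1 and 22.6 on HFD.

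The call for Cd151 rested on few counts and did not hold under every setting. Over 14 alternatives its log2 fold change stayed between 0.49 and 0.95, and 7 of them passed the threshold, with adjusted p from 0.00107 to 0.12 (edgeR and DESeq2). In 2 of these 7, resolution 0.6 and the genes kept in clustering (0.49 and 0.55), the suprabasal class also took in a cluster with Krt9 among its leading genes and no volar Krt9 class arose, so they did not test the same class. Leaving out any 1 of the 6 libraries but female HFD 2 ended the call, with log2 fold changes of 0.70 to 0.95 and adjusted p of 0.073 to 0.12, and without female HFD 2 the change was 0.95 (adjusted p = 0.013, edgeR). The call was also lost with all 12 libraries in 1 fit (adjusted p = 0.095, edgeR) and with the replicate number as a block (0.053). In the 2 clusters of the class taken alone, the change was 0.70 (adjusted p = 0.057, edgeR) in the one led by Fabp5 and Gsta2 and 1.04 (adjusted p = 0.068) in the one led by Serpinb3a. The summed basal markers of the class were at 509, 762 and 511 on RD and 719, 579 and 842 on HFD, a log2 difference of 0.26 with 4 of 6 markers higher. Summed endothelial markers were at 3.17 to 4.22 on RD and 3.49 to 10.8 on HFD, with 1 of 4 markers higher and 1 at 0. This class also held a smaller share of the cells in each HFD library than in each RD library. The part of these in the result was not tested.

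**Figure D4:**
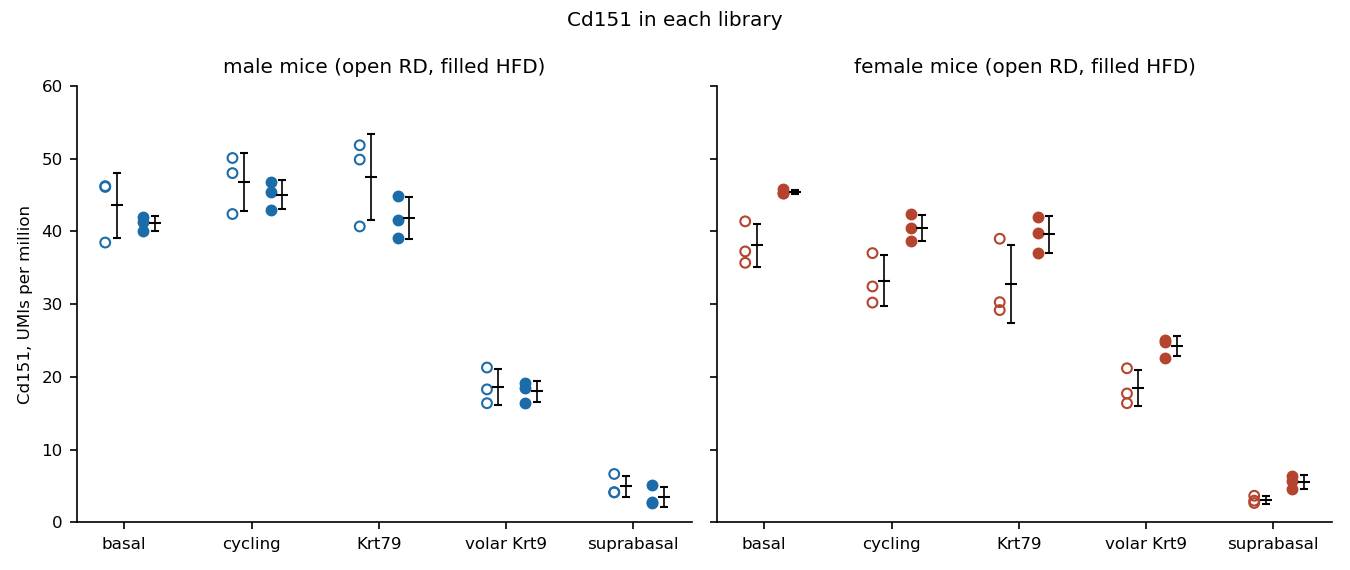
Cd151 by class and library (CPM), RD and HFD side by side with the group means, males and females in separate panels. In female suprabasal cells the HFD libraries lie at 4.54 to 6.36 and the RD libraries at 2.67 to 3.67, while the male diets overlap in all 5 classes.

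Other members were lower on HFD in females without passing the test. Itgb4 stood at 219, 208 and 200 in basal cells on RD and at 177, 193 and 160 on HFD, a log2 fold change of -0.25 (adjusted p = 0.18, edgeR), and at -0.30 in volar Krt9 cells (adjusted p = 0.077). The diets did not overlap for Itgb4 in basal, Krt79 and volar Krt9 cells, while in suprabasal cells its change was 0.10. Dst was between -0.16 and -0.33 in all 5 classes, with adjusted p of 0.12 to 0.32 (edgeR), and Itga3 was at -0.38 in basal cells (adjusted p = 0.27). Without female HFD 2, Itgb4 passed in volar Krt9 cells at -0.37 and Dst and Itga3 in cycling cells, both at -0.48 (adjusted p = 0.0201, 0.0211 and 0.0477, edgeR). Over all genes 2812 of 69138 tests passed without that library, against 1266 of 67906 with it. The makeup of the basal class moved too. The Mmp3-led group, where 8 members were higher and Cd151 lower, held 59.1%, 53.9% and 65.0% of the UMIs of the pair of basal groups on RD and 67.2%, 65.4% and 67.5% on HFD, without overlap, and its part in the basal values was not tested. Of the Lgr5-led and Defb6-led groups in females, the Lgr5-led one held 19.8%, 15.9% and 20.6% of the UMIs on RD. On HFD it held 24.0%, 21.5% and 16.3%, with overlap. Lamb3, the partner of Lama3, lay higher on HFD without overlap in Krt79, volar Krt9 and suprabasal cells, with log2 fold changes of 0.25, 0.14 and 0.46 (adjusted p = 0.27, 0.56 and 0.11, edgeR). The members' medians were -0.12, -0.14, 0.05, -0.11 and 0.09 from basal to suprabasal cells. Of the 9 members 1, 1, 2, 2 and 2 lay apart with HFD higher, beside 10.7%, 14.6%, 11.6%, 14.3% and 18.3% of all genes, and 2, 0, 2, 1 and 0 with HFD lower, beside 10.2%, 9.52%, 9.58%, 9.67% and 9.74%. The counts of 0 to 2 of 9 members lay near these background shares.

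The effect of diet in males was set against that in females by fitting all 12 libraries with diet, sex and their product. Sex and counting software cannot be told apart here, and each sex was clustered separately. The part of software and clustering in these differences was not tested. No member passed in any class by edgeR. By DESeq2 2 of the 45 passed, Cd151 and Lamb3 in suprabasal cells, beside 1.71% of the tests of all genes. An unadjusted p under 0.05 was found for 19 of the 45 tests (42.2%), beside 12.2% of the tests of all genes (edgeR). Of all genes 0.0347%, 0.0141%, 0.112%, 0.0809% and 2.58% were called from basal to suprabasal cells, 0.587% over the 5 classes. The member nearest to the threshold was Cd151 in suprabasal cells, with a difference of -1.23 between the log2 fold changes, male minus female (adjusted p = 0.072, edgeR). Over 19 alternatives this difference ran from -1.57 to -0.52 with adjusted p of 0.000462 to 0.42, and 3 passed (DESeq2, no filter, and without male HFD 3). Without male RD 2 the difference for Dst in volar Krt9 cells passed at 0.61 (adjusted p = 0.0259, edgeR), and without male HFD 3 that for Lamb3 in suprabasal cells passed at -1.59 (adjusted p = 0.0268). The calls over all genes also changed in number with the library left out, and their share in these fits is not given here. The passes of Dst, Lamb3 and Cd151 with a library left out are thus not set apart from that change. Without the Tubb3- and Clu-led cluster 147 rather than 406 tests over all genes and classes were past the threshold of the interaction.

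The neighbouring genes of the pathway were 51 genes in 6 lists, of which 42 to 47 were tested per class. Among the laminin and plakin partners, Plec, the plectin that sits beside dystonin in the plaque, went from 301 ± 25.0 in basal to 142 ± 17.9 in suprabasal cells in males and from 166 ± 8.01 to 77.9 ± 8.17 in females. Col7a1, the collagen of the anchoring fibrils below the hemidesmosome, fell from 68.0 ± 10.9 to 4.44 ± 1.94 in males and from 28.3 ± 2.22 to 1.52 ± 0.169 in females. Of the focal adhesion adaptors, which tie β1 integrins to actin, 8 of 11 were highest in basal cells in either sex.

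With diet, 0 of 219 tests of listed genes passed in males by edgeR, and 5 passed by DESeq2, which called 253 of 59403 tests over all genes (0.426%). An unadjusted p under 0.05 was found for 36 of the 219 (16.4%), beside 7.78% of the tests of all genes (edgeR). The 3 with the smallest adjusted p were Npnt (nephronectin, a basement membrane ligand of α8β1) in Krt79 cells at -0.82 (adjusted p = 0.12, edgeR), Itga5 in suprabasal cells at -1.61 (0.18) and the membrane protease Mmp14 in suprabasal cells at -0.61 (0.25). Npnt passed by DESeq2 (adjusted p = 0.0073), with all 12 libraries in 1 fit (0.032, edgeR) and with no filter (0.00063), Itga5 in the latter 2 (0.048 and 0.037), and Mmp14 by DESeq2 (0.042) and with no filter (0.038). In females 5 of 218 passed (2.29%), 3 higher and 2 lower on HFD, beside 1.86% of the tests of all genes, and 35 (16.1%) had an unadjusted p under 0.05, beside 18.4% (edgeR). These shares lay near the background. Ilk, the integrin-linked kinase that binds β integrin tails, rose in basal (0.46, adjusted p = 0.0497, edgeR), volar Krt9 (0.39, 0.0466) and suprabasal cells (0.43, 0.0419). In suprabasal cells it stood at 5.64, 5.48 and 4.87 on RD and at 6.99, 7.62 and 7.57 on HFD. Plec fell by 0.28 on the log2 scale in suprabasal cells (adjusted p = 0.0304, edgeR), from 86.0, 86.0 and 80.9 on RD to 66.7, 77.8 and 69.7 on HFD. Dag1, the dystroglycan that binds laminin, fell by 0.29 there (adjusted p = 0.0228), from 126, 128 and 123 to 106, 107 and 104. The groups did not overlap for any of these 3 genes. By list, focal adhesion adaptors gave 3 of 55 calls, laminin and plakin partners 1 of 30, anchoring and basement membrane proteins 1 of 46, and the other integrin chains, the tetraspanins with syndecans and the proteases 0 of 27, 30 and 30 (0, 6 and 2 at an unadjusted p under 0.05). Leaving out any 1 of the 6 female libraries other than HFD 2 ended each Ilk call and the Plec call, and leaving out HFD 3 or any RD library ended the Dag1 call, with adjusted p of up to 0.22, 0.12 and 0.097. Resolution 0.6 ended the Ilk call in basal cells (adjusted p = 0.060, edgeR) and the Dag1 call (0.052), doublet removal and the 10% mitochondrial limit ended the Ilk call in volar Krt9 cells (0.056 and 0.080), and the fit of all 12 libraries ended the Plec call (0.13). The replicate number as a block ended the Ilk calls in basal, volar Krt9 and suprabasal cells (adjusted p = 0.14, 0.11 and 0.076, edgeR).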

How the data were processed

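The authors deposited, for each of 12 libraries of hind paw epidermis (10x Genomics 3′ v3.1), UMI counts per gene and barcode without normalization, aligned to mm10-2020-A. The file headers name Cell Ranger 6.1.0 for males and 7.2.0 for females, and the submitters' processing notes name 7.2.0 and Seurat 5.0.0. The 9 genes and all lists were chosen with earlier results of these data known.

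As in the study, cells were dropped below 200 (males) or 500 (females) genes, above 6000 genes or above 5% mitochondrial UMIs. Each sex was clustered separately on 2000 variable genes, without the 9 genes and the listed genes, with 10 principal components and 20 neighbours (leidenalg 0.10.2, igraph 0.11.9) at resolution 0.3, the lowest that gave at least 10 clusters. Clusters were named from fixed markers, and 1 cluster per sex that met no class is called unnamed. The study's cell labels were not used here, so a difference from the study may come from the rebuilt classes. Beyond the upper limit on genes, doublets were kept. An alternative removed the highest doublet scores (0.8% per 1000 barcodes, 5.90% to 13.0% of a library).

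UMIs were summed per library and class and compared with edgeR 4.0.16 (R 4.3.3, TMM, filterByExpr, quasi-likelihood test, Benjamini-Hochberg, threshold 0.05), with diet as the term in each sex and its product with sex over 12 libraries. Levels are plain CPM. Sums, correlations and exact tests used Python 3.11.15 (numpy 2.4.6, pandas 2.3.3, scipy 1.17.1). Tests were tried on simulated counts of the same designs with 200 genes changed. Of genes changed by 1 on the log2 scale 84.4% were called in the male basal simulation (12044 genes), 85% in the male suprabasal one (12540), 72.7% in the female basal one (14054) and 74.5% in the female suprabasal one (13587), and of those changed by 0.5, 36.1%, 37%, 48.0% and 54.5%. Of the calls in the same order 9.38%, 10.3%, 7.75% and 5.22% were of unchanged genes.

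Text names all 9 members, listed genes past the threshold (or the 3 with the smallest adjusted p), and the 10 genes most alike in level. Genes that lead clusters were named after their values were seen. Alternatives were DESeq2 1.42.0, no count filter, resolution 0.6, the genes kept in clustering, doublets removed, a 10% mitochondrial limit, the replicate number as a block, all 12 libraries in 1 fit, and each library left out.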

Additional observations from a re-analysis of the deposited data

Results flagged for a closer look

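The change with diet differed between the sexes, by the test of the interaction over 12 libraries (edgeR), for 3 of 221 tests of the listed genes (1.36%) and for none of the 45 tests of the 9 members, beside 0.587% of the tests of all genes. Sex cannot be told apart from counting software in these differences, and each sex was clustered separately. Of the 406 tests called over all genes, 374 were in suprabasal cells, the class of 2 of the 3, where 2.58% of genes were called. Npnt in Krt79 cells had a difference of -0.91 between the log2 fold changes, male minus female (adjusted p = 0.0448). Its male levels were 34.6, 40.3 and 39.4 on RD and 19.1, 22.1 and 21.5 on HFD, and its female levels were 33.7, 28.8 and 35.6 on RD and 38.5, 30.2 and 35.9 on HFD, so the diets were apart in males and overlapped in females. Over 18 alternatives the difference ran from -1.05 to -0.76 with adjusted p from 0.000306 to 0.15, and 6 passed. The call was lost without any 1 library other than female HFD 2 and male HFD 3, at resolution 0.6 and with the 10% mitochondrial limit.

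Ilk in suprabasal cells had a difference of -0.52 (adjusted p = 0.0440, edgeR), with a log2 fold change of -0.10 in males and 0.43 in females. Over 19 alternatives it ran from -0.55 to -0.40 with adjusted p from 0.0254 to 0.19, and 2 passed. Itga5, the α chain of the fibronectin receptor, had a difference of -1.98 in suprabasal cells (adjusted p = 0.0172, edgeR), with log2 fold changes of -1.61 in males and 0.37 in females. Its levels were low, 0.451, 0.415 and 0.531 CPM on RD and 0.103, 0.152 and 0.177 on HFD in males, and 0.979, 0.796 and 0.778 on RD and 1.12, 1.26 and 1.02 on HFD in females. Over 19 alternatives it ran from -2.97 to -1.63 with adjusted p from 0.00484 to 0.10, and 15 passed. It was lost without female RD 2, female RD 3 or male HFD 1, at adjusted p of 0.0520 to 0.0588, and with the 9 genes and the lists kept in clustering, at 0.10. Groups of 3 libraries were not tested for single libraries far from the others.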

How the results depend on the processing

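No value of a member or listed gene past the threshold changed sign under any alternative run. The signs of the calls over all genes were not checked. Of the members' changes that did not pass, 20 of 45 in males, 11 of 44 in females and 10 of 45 for the interaction took the other sign under at least 1 alternative, Itga3, Dst and Cd151 in male suprabasal cells among them. Of the members' log2 fold changes under the alternatives, 561 of 630 in males, 574 of 612 in females and 758 of 801 for the interaction kept their sign and stayed on the same side of the threshold. The size of the moves was not part of this count. The count of members past the threshold in males (0 of 45 tests) was 2 with no filter and 0 to 1 with a library left out. That in females (1 of 45) was 2 by DESeq2, 6 with no filter, 0 with all 12 libraries and 0 to 4 with a library left out (4 without female HFD 2). For the interaction (0) it was 2 by DESeq2, 7 with no filter and 0 to 2 with a library left out. Tests of listed genes past the threshold in males (0) were 5 by DESeq2, 11 with no filter, 2 with all 12 libraries and 0 to 1 with a library left out. In females (5) they were 9 by DESeq2, 9 with no filter, 3 at resolution 0.6 and 0 to 14 with a library left out, and for the interaction (3) they were 9, 12, 1, 1 with the genes kept in clustering and 0 to 7. Over all genes and classes the count in males (0 of 59403 tests) was 253 by DESeq2, 814 of 98975 with no filter, 25 with all 12 libraries and 0 to 207 with a library left out (207 of 60211 without male RD 2). In females (1266 of 67906) it was 2302 by DESeq2, 3828 of 115702 with no filter and 10 to 2812 with a library left out (10 of 69559 without RD 1, 2812 of 69138 without HFD 2). For the interaction (406 of 69220) it was 1182 by DESeq2, 2037 with no filter, 102 at resolution 0.6, 65 with the genes kept in clustering, 147 without the male cluster led by Tubb3 and Clu and 54 to 1307 with a library left out. The median log2 ratio of basal over suprabasal cells was 4.04 in males, 5.05 with doublets removed and 4.98 without that cluster, and 4.57 in females, 2.78 at resolution 0.6, 2.97 with the genes kept in clustering and 5.12 with doublets removed. At 2.78 and 2.97 the female suprabasal class was a wider one, which also held a cluster with Krt9 among its leading genes. The cause of these moves was not tested. Libraries of the same replicate number had correlations of -0.144 to 0.135 and were the closest in 16 of 30 checks. Each check chose among 3 libraries, so these values do not settle whether replicate numbers pair the libraries. The replicate block ended the calls in females for Cd151 (adjusted p = 0.053, edgeR) and for Ilk in basal, volar Krt9 and suprabasal cells (0.14, 0.11 and 0.076). It gave 0 members and 2 listed tests in females, 38 genes in males and 482 in females. No volar Krt9 class arose at resolution 0.6 in females or with the genes kept in clustering, so no value stands there. At both settings the male cluster led by Serpinb3a met no class name and was left out, while the female suprabasal class was the wider one named above. The interaction counts at these settings thus cover fewer classes, and their suprabasal classes are unlike between the sexes. Low counts limit Itga3, Lamb3 and Cd151 in suprabasal cells, and counting error is part of every value.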

Other observations

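Several basement membrane genes outside the 9 had another order of classes. Itgb8, a partner of the integrin αv chain, was at 23.7 ± 4.15 CPM in male and 32.0 ± 3.61 in female Krt79 cells (SD, n = 6 libraries) and at 0.0883 to 0.209 in the other 4 classes of either sex. Col4a1 and Col4a2, the chains of the common collagen IV, were at 15.02 ± 2.34 and 6.61 ± 2.36 in male and 9.82 ± 1.48 and 5.46 ± 1.25 in female Krt79 cells and at or under 0.495 in the others. Fermt2 and Hspg2 were also highest in Krt79 cells. Itgb5 and Dag1 ran the other way from the members. Itgb5 went from 19.4 ± 1.99 in basal to 76.0 ± 4.69 in suprabasal cells in males and from 25.4 ± 1.23 to 104 ± 7.95 in females, and Dag1 from 62.7 ± 2.08 to 90.4 ± 5.19 and from 81.6 ± 7.22 to 116 ± 11.2. These levels describe clusters of the same cells and were not tested.

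The cluster without a name in each sex, led by genes such as Aox3, Prelp and Stmn2 (1650 male and 1855 female cells), held Lamb3 at 142 ± 10.2 in males and 80.2 ± 12.1 in females, beside 123 ± 10.6 and 80.9 ± 3.41 in basal cells. The other laminin chain, Lama3, was at 41.2 ± 9.35 and 118 ± 16.9 there, and Col17a1 at 668 ± 123 and 671 ± 62.6. The ranges of Lamb3 overlapped those of basal cells in both sexes, and those of Col17a1 did not.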
